A study of Mus musculus with 12 samples.

Results

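The genes described are 9 members of the oxidase and nitric oxide synthase families that a colonic epithelium can use to make reactive oxygen and nitrogen species: Nox1, Noxo1, Noxa1, Nox4, Cybb, Cyba, Duox2, Duoxa2 and Nos2. They were taken by name from the 38924 Ensembl genes listed in the count tables of 12 mice, and all 9 were found and passed the filter on low counts that left 20311 genes for testing. The mice were 6 APC Min/+ and 6 wild type (WT) animals whose proximal colon RNA was sequenced, all female, on the C57BL/6 strain and 6 weeks old, with no treatment listed for either genotype. APC Min/+ mice carry 1 truncated germ-line copy of Apc in every cell and later form intestinal polyps, and the study describes this age as one before detectable neoplasia. The study housed the genotypes in separate cages, so genotype and cage cannot be told apart.

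NADPH oxidases move electrons from NADPH across a membrane to oxygen. Nox1 is the catalytic subunit of the colonic epithelial enzyme, and it works with the organizer Noxo1, the activator Noxa1 and the membrane partner p22phox, encoded by Cyba. Cybb encodes the phagocyte catalytic subunit gp91phox, which also pairs with p22phox, as does Nox4, a form that is active without the cytosolic subunits. Duox2 releases hydrogen peroxide at the apical face of the epithelium and needs the maturation factor Duoxa2 to leave the endoplasmic reticulum. Nos2 is the inducible nitric oxide synthase, which is strongly transcribed upon inflammatory stimulation.

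The genes lie on 6 chromosomes of the GRCm38 assembly. Nox1 (ENSMUSG00000031257.8, 134086421 to 134221956, minus strand) and Cybb (ENSMUSG00000015340.4, 9435252 to 9487771, minus strand) are on chromosome X. Noxa1 (ENSMUSG00000036805.7, 25085667 to 25095149, minus strand), Duox2 (ENSMUSG00000068452.7, 122279247 to 122298449, minus strand) and Duoxa2 (ENSMUSG00000027225.7, 122298900 to 122302885, plus strand) are on chromosome 2. Noxo1 (ENSMUSG00000019320.7, 24696234 to 24700529, plus strand) is on chromosome 17 and Nox4 (ENSMUSG00000030562.10, 87246096 to 87398710, plus strand) on chromosome 7. Cyba (ENSMUSG00000006519.10, 122424776 to 122432930, minus strand) is on chromosome 8 and Nos2 (ENSMUSG00000020826.6, 78920787 to 78960254, plus strand) on chromosome 11. Duox2 and Duoxa2 stand head to head, with 450 bases between the starts of the spans given here.

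RefSeq promoter windows of GRCm38.p6, running from 250 bases before to 50 bases after a gene's start, were found for 8 of the 9 genes. Those of Duox2 and Duoxa2 are shown because the transcripts of this divergent pair varied together between mice. That of Nox1 is shown because Nox1 had the lowest unadjusted p-value of the 9 genes between genotypes in edgeR's quasi-likelihood test. Capitals mark matches, on either strand, to the TATA box core TATAAA (in Duoxa2, starting 30 bases before the start) and to the CDX-type core TTTATG (in Nox1). The windows are chr2:122298178-122298477 (minus strand) for Duox2, chr2:122298650-122298949 (plus strand) for Duoxa2 and chrX:134111805-134112104 (minus strand) for Nox1, each read 5′ to 3′ along its gene. The RefSeq starts of Nox1 and Duox2 lie inside the gene spans given above, which begin further upstream.
Duox2: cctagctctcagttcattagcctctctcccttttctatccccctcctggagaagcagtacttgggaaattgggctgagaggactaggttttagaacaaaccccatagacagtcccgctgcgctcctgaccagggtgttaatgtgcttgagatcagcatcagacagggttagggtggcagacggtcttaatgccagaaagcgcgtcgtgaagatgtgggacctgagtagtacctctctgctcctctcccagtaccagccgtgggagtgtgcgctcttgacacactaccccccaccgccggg
Duoxa2: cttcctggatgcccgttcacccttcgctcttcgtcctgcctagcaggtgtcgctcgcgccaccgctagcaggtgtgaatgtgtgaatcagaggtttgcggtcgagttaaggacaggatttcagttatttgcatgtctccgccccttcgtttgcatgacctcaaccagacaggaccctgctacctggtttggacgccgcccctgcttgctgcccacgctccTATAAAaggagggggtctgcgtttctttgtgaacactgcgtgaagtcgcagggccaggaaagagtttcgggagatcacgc
Nox1: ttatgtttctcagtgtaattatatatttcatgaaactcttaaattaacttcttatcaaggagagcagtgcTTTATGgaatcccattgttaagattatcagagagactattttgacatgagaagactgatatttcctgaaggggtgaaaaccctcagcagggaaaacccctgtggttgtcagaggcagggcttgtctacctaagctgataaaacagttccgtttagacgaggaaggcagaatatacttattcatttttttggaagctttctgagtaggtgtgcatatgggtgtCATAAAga

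The letters TATAAA occurred in 13.6% of the 32851 promoter windows of the same length and, among the 8 windows of these genes, in that of Duoxa2 alone. TTTATG occurred in 11.8% of all windows and only in that of Nox1, with 1 match 180 bases before the start and another 42 bases after it. The TCF/LEF-type core CTTTGAT was in 3.73% of all windows and in none of the 8, and the STAT-type core TTCNNNGAA was in 8.30% and only in that of Nox4. These are matches of letters and not measured binding sites.

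Total counts on genes lay between 50313805 and 197914821 per mouse, at which 3 counts were worth 0.0152 to 0.0560 CPM (the count as a share of the library, scaled by TMM factors). The cell types present in the tissue were read from marker genes. The epithelial marker Epcam was high in all mice (1239 to 1624 CPM), but other epithelial markers were less even. Krt20 ran from 534 (M13_1) to 2564 CPM (M18_b) and Cdx2 from 20.6 (M13_1) to 251 CPM (M8_2). Smooth muscle markers were high too, with a summed level of 3280 to 4849 CPM. Macrophage markers summed to 185 to 350 CPM, while neutrophil markers summed to 0.718 to 6.67 CPM and the neutrophil peroxidase Mpo stayed at or below 0.0626 CPM. Libraries stood apart in 2 ways. The APC Min/+ mice M10_2 and M13_1 had 378 and 275 CPM of Hoxb13, a homeobox gene of the distal colon, against at most 0.744 CPM in the other 10 mice. The WT mouse M17_1 had the lowest summed epithelial markers (5584 CPM) and the WT mouse M18_b the highest (11280 CPM). Values without these mice are therefore given beside the genotype differences they move most.

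Levels were compared between genes in RPKM, which divides by gene length. Averaged over the 12 mice, Cyba was highest at 43.6 ± 9.63 RPKM (SD, n = 12), followed by Noxa1 at 31.2 ± 5.04, Noxo1 at 21.4 ± 4.70 and Duox2 at 9.46 ± 4.66 RPKM. Duoxa2 (4.08 ± 4.51 RPKM) and Nox1 (4.03 ± 2.70 RPKM) followed, then Cybb (1.91 ± 0.535 RPKM), and Nox4 (0.167 ± 0.0358 RPKM) and Nos2 (0.164 ± 0.0647 RPKM) were lowest. The organizer, the activator and p22phox were thus each measured above the catalytic subunit Nox1. Of the 8 pairs of neighbours in this order, only Cybb and Nox4 had ranges that did not overlap. Duox2 was above Duoxa2 in 12 of 12 mice, whereas Duoxa2 was above Nox1 in 5 of 12 and Nox4 above Nos2 in 7 of 12. The length behind the RPKM values is that in the count tables, which differed from the GENCODE M21 model for Cyba (758 against 1039 bases), Duox2 (6403 against 6771) and Nos2 (4192 against 4412).

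The comparison of genotypes asks whether these genes are transcribed at another level in the APC Min/+ colon before tumours form. None of the 9 was called. In edgeR's quasi-likelihood test, 0 of 20311 genes (0.0%) passed a Benjamini-Hochberg FDR of 0.05 and changed at least 2-fold, and the lowest FDR was 0.908. Without adjustment, 1071 genes had a p-value under 0.05, of which 703 were higher in APC Min/+ (3.46% of those tested) and 368 lower (1.81%). DESeq2 called 27 genes, edgeR's exact test 10 and limma-voom 0, and none of the 9 genes was among them. Of the 9, 1 (Nox1) had an unadjusted p under 0.05 and a higher mean in APC Min/+, and 0 had one with a lower mean. For 0 of the 9 genes were the genotypes free of overlap, which held for 0.118% of all genes. The median log2 fold change of the 9 genes was -0.02, and that of all genes tested was -0.01.

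**Figure D1:**
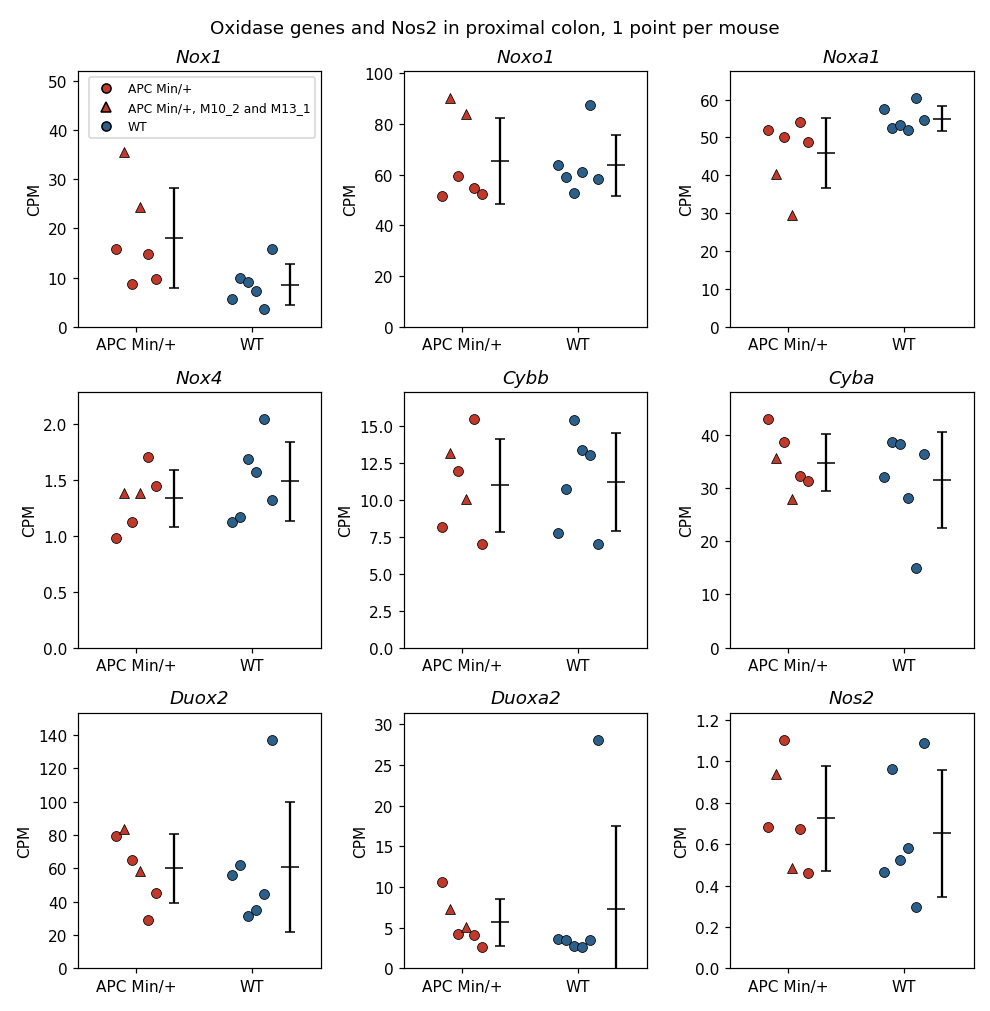
TMM-scaled CPM of each of the 9 genes (y axis, linear and starting at 0, with its own scale per gene) in the 6 APC Min/+ (red) and 6 WT (blue) mice, 1 point per mouse, with triangles for M10_2 and M13_1 and black bars for the mean ± SD (the lower bar of Duoxa2 in WT runs below 0 and is not drawn there). The genotypes overlap for every gene, the triangles are the highest points for Nox1 and the lowest for Noxa1, and the WT mouse M18_b is the highest point for Duox2 and Duoxa2.

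Nox1, the catalytic subunit of the epithelial complex, was counted at 18.1 ± 10.15 CPM in APC Min/+ (SD, n = 6) and at 8.55 ± 4.22 CPM in WT (SD, n = 6). Its values in APC Min/+ were 15.8 (M8_2), 35.4 (M10_2), 8.73 (M18_2b), 24.3 (M13_1), 14.7 (M2_A) and 9.68 CPM (M20_1), and those in WT were 5.55 (M17_2), 10 (M19_1), 9.01 (M16_1), 7.31 (M18_2a), 3.67 (M17_1) and 15.8 CPM (M18_b). All 6 APC Min/+ mice were above the WT median, M10_2 and M13_1 were above every other mouse, M8_2 was level with the highest WT mouse, and the remaining 3 APC Min/+ mice lay within the WT range. The log2 fold change, APC Min/+ minus WT, was 1.08 (standard error, SE, 0.387, unadjusted p = 0.0150, FDR = 0.908 in edgeR's quasi-likelihood test). The exact permutation test on log2(CPM + 0.5), two-sided and able to reach 0.00216 with 6 mice against 6, gave p = 0.0455, not adjusted over the 9 genes. That p-value exceeded 0.05 in 8 of the 12 tests that each left out 1 mouse, those without M8_2 (0.0606), M10_2 (0.0801), M13_1 (0.0736), M2_A (0.0541), M17_2 (0.0779), M16_1 (0.0519), M18_2a (0.0714) and M17_1 (0.0801). Without both M10_2 and M13_1 the log2 fold change was 0.52 (SE 0.337, FDR = 0.9999 in edgeR's quasi-likelihood test). As these are whole pieces of tissue, a change in the number of cells that express a gene and a change in RNA per cell cannot be told apart.

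Noxo1, which organizes the complex at the membrane, was counted at 65.4 ± 17.11 CPM in APC Min/+ (SD, n = 6) and 63.7 ± 12.1 CPM in WT (SD, n = 6). In APC Min/+ the values were 51.6 (M8_2), 90.1 (M10_2), 59.6 (M18_2b), 84.0 (M13_1), 54.6 (M2_A) and 52.4 CPM (M20_1), and in WT 63.7 (M17_2), 59.2 (M19_1), 52.9 (M16_1), 60.9 (M18_2a), 87.3 (M17_1) and 58.2 CPM (M18_b). High values came from M10_2, M13_1 and the WT mouse M17_1, and the other 9 mice lay between 51.6 and 63.7 CPM. The log2 fold change was 0.04 (SE 0.170, FDR = 0.973 in edgeR's quasi-likelihood test), and it was -0.22 without M10_2 and M13_1. Noxo1 shares 2122 of its 3013 exonic bases with Tbl3 on the opposite strand, and the counting is not stated to use strand, so reads from the shared bases cannot be assigned to 1 of the 2 genes. Tbl3 itself was counted at 16.8 to 34.1 CPM and was lowest in M13_1 (16.8 CPM) and M10_2 (19.3 CPM). M17_1 came next at 22.0 CPM, close to M18_2b at 22.6 CPM.

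Noxa1, the activator subunit, was counted at 45.8 ± 9.23 CPM in APC Min/+ (SD, n = 6) and 54.9 ± 3.29 CPM in WT (SD, n = 6). Its APC Min/+ values were 52.1 (M8_2), 40.5 (M10_2), 50 (M18_2b), 29.6 (M13_1), 54.0 (M2_A) and 48.9 CPM (M20_1), and its WT values were 57.4 (M17_2), 52.4 (M19_1), 53.2 (M16_1), 51.9 (M18_2a), 60.3 (M17_1) and 54.5 CPM (M18_b). M10_2 and M13_1 were below all other mice, and the genotypes overlapped among the rest. The log2 fold change was -0.26 (SE 0.131, unadjusted p = 0.0667, FDR = 0.908 in edgeR's quasi-likelihood test). The exact permutation p, not adjusted over the 9 genes, was 0.0173. It exceeded 0.05 without the WT mouse M17_2 (0.0714), M17_1 (0.0779) or M18_b (0.0606), and without both M10_2 and M13_1 the log2 fold change was -0.10 and the exact p 0.0905. Entpd8, which shares 50 of the 1617 exonic bases of Noxa1 on the opposite strand, was also lowest in M13_1 (131 CPM) and M10_2 (147 CPM) and lay between 178 and 230 CPM elsewhere. Noxa1 varied least of the 9 genes between mice, with a coefficient of variation of 16.2%, against 67.0% for Nox1.

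Cyba, which encodes the membrane partner p22phox, was counted at 34.7 ± 5.42 CPM in APC Min/+ (SD, n = 6) and 31.4 ± 9.02 CPM in WT (SD, n = 6). The values ran from 27.8 (M13_1) to 42.9 CPM (M8_2) in APC Min/+, and from 14.9 (M17_1) to 38.7 CPM (M19_1) in WT. Apart from M17_1, the WT mice lay between 28.1 and 38.7 CPM, inside the APC Min/+ range. The log2 fold change was 0.14 (SE 0.198, FDR = 0.913 in edgeR's quasi-likelihood test) and was -0.0021 without M17_1, the mouse with the lowest summed epithelial markers.

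The balance of the complex was followed as ratios of RPKM within each mouse, which are free of library scaling, an analysis chosen after the values were seen. The Noxa1 to Nox1 ratio was 6.75 (M8_2), 2.33 (M10_2), 11.7 (M18_2b), 2.48 (M13_1), 7.51 (M2_A) and 10.3 (M20_1) in APC Min/+ mice, and 21.2 (M17_2), 10.7 (M19_1), 12.1 (M16_1), 14.5 (M18_2a), 33.7 (M17_1) and 7.06 (M18_b) in WT mice. The 2 mice with high Hoxb13 had ratios below all others, which follows from their Nox1 being above and their Noxa1 below all other mice. The other 4 APC Min/+ mice overlapped the WT mice. The mean log2 ratio, APC Min/+ minus WT, differed by -1.34 (exact permutation test, p = 0.0260, adjusted 0.0721 over the 4 ratios computed). The Noxo1 to Nox1 ratio differed by -1.03 (exact permutation test, p = 0.0368, adjusted 0.0721) and the Cyba to Nox1 ratio by -0.86 (exact permutation test, p = 0.0541, adjusted 0.0721), so that 0 of these differences passed 0.05 after adjustment. Without M10_2 and M13_1 the differences for Noxa1 and Noxo1 were -0.72 (exact permutation test, p = 0.124) and -0.82 (exact permutation test, p = 0.148), and that for Cyba was -0.35 (exact permutation test, p = 0.238).

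Variation between mice was also compared between Nox1 and each partner. Since M10_2 and M13_1 stood apart, correlations with Nox1 were taken over the other 10 mice, on log2(CPM + 0.5) with permutation tests and adjustment over the 6 partner pairs computed. For Nox1 and Noxo1, Pearson's r was -0.81 (permutation p = 0.00397, adjusted 0.0115) and Spearman's rho -0.81 (permutation p = 0.00718, adjusted 0.0237). Without M8_2 and M17_1, the 2 mice farthest from the median of Nox1, r was -0.51, and over all 12 mice rho was -0.11, so the relation rests on which mice enter. Of the 3307 exonic bases of Nox1, 399 are shared with Cstf2 on the opposite strand, which ran from 49.3 to 59.7 CPM. For Nox1 and Cyba, r was 0.76 (permutation p = 0.0111, adjusted 0.0167) and rho 0.66 (permutation p = 0.0442, adjusted 0.0783), and r was 0.27 without the same 2 mice. For Nox1 and Noxa1, r was -0.53 (permutation p = 0.110, adjusted 0.132) and rho -0.22 (permutation p = 0.535, adjusted 0.642), and r was -0.09 without those mice.

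Nox4 was counted at 1.33 ± 0.254 CPM in APC Min/+ (SD, n = 6) and 1.49 ± 0.352 CPM in WT (SD, n = 6), from 60 to 274 reads per mouse. The lowest value was 0.980 CPM (M8_2) and the highest 2.05 CPM (M17_1), and the genotypes overlapped throughout. The log2 fold change was -0.16 (SE 0.192, FDR = 0.911 in edgeR's quasi-likelihood test). Nox4 and Cyba, which encode partners, had r = -0.72 over the 12 mice (permutation p = 0.00574, adjusted 0.0115) and rho = -0.58 (permutation p = 0.0522, adjusted 0.0783). The r was -0.30 without M8_2 and M17_1, which are at the 2 ends for both genes.

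Cybb, the phagocyte oxidase, was counted at 11.0 ± 3.17 CPM in APC Min/+ (SD, n = 6) and 11.2 ± 3.33 CPM in WT (SD, n = 6), with a log2 fold change of -0.03 (SE 0.231, FDR = 0.984 in edgeR's quasi-likelihood test). In APC Min/+ the values were 8.201 (M8_2), 13.2 (M10_2), 11.98 (M18_2b), 10.1 (M13_1), 15.5 (M2_A) and 7.02 CPM (M20_1), and in WT 7.77 (M17_2), 10.7 (M19_1), 15.4 (M16_1), 13.4 (M18_2a), 13.08 (M17_1) and 7.01 CPM (M18_b). The highest value of each genotype was in the mouse with the highest summed macrophage markers of that genotype, M2_A (333 CPM) and M16_1 (350 CPM). The lowest summed macrophage markers were 185 CPM, in M20_1 and M13_1, and the part of these cells in the Cybb level was not tested. For Cybb and Cyba, r was -0.21 (permutation p = 0.571, adjusted 0.571) and rho -0.07 (permutation p = 0.833, adjusted 0.833) over the 12 mice, and r was -0.21 without M20_1 and M18_b.

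**Figure D2:**
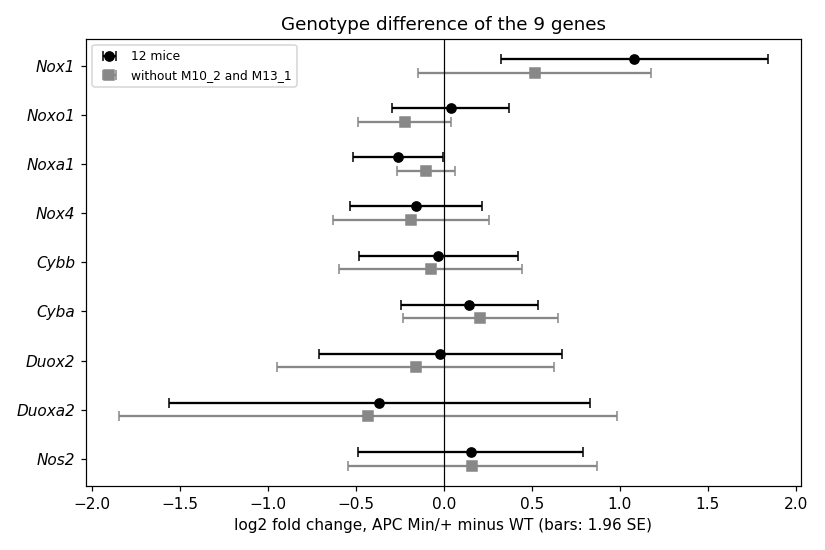
Log2 fold change of the 9 genes, APC Min/+ minus WT (x axis), from edgeR's quasi-likelihood fit on all 12 mice (black circles) and without M10_2 and M13_1 (grey squares), with bars for approximate 95% intervals computed from the standard errors. Nox1 moves from 1.08 to 0.52 when those mice are left out, Noxo1 moves from 0.04 to -0.22, and the interval of Duoxa2 is the widest.

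Duox2, the peroxide-releasing oxidase of the apical epithelium, was counted at 60.1 ± 20.7 CPM in APC Min/+ (SD, n = 6) and 61.1 ± 39.1 CPM in WT (SD, n = 6). The APC Min/+ values were 79.3 (M8_2), 83.8 (M10_2), 64.8 (M18_2b), 58.5 (M13_1), 29.1 (M2_A) and 45.2 CPM (M20_1), and the WT values 56.3 (M17_2), 61.9 (M19_1), 31.4 (M16_1), 35.1 (M18_2a), 44.5 (M17_1) and 137 CPM (M18_b). M18_b, the mouse with the highest summed epithelial markers, was far above the other WT mice, and M2_A was the lowest of all. The log2 fold change was -0.02 (SE 0.352, FDR = 0.993 in edgeR's quasi-likelihood test) and 0.40 without M18_b.

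Duoxa2, the maturation factor of Duox2, was counted at 10.7 (M8_2), 7.29 (M10_2), 4.25 (M18_2b), 5.09 (M13_1), 4.09 (M2_A) and 2.62 CPM (M20_1) in APC Min/+, and at 3.59 (M17_2), 3.49 (M19_1), 2.73 (M16_1), 2.58 (M18_2a), 3.55 (M17_1) and 28.1 CPM (M18_b) in WT mice. Without M18_b, the WT mice lay between 2.58 and 3.59 CPM, and 5 of the 6 APC Min/+ mice were above that range. The means were 5.67 ± 2.89 CPM (SD, n = 6) and 7.33 ± 10.16 CPM (SD, n = 6), with a log2 fold change of -0.37 (SE 0.611, FDR = 0.924 in edgeR's quasi-likelihood test). Without M18_b the log2 fold change turned to 0.84 (FDR = 0.896 in the same test). Duoxa2 varied most of the 9 genes, with a coefficient of variation of 110%. Its exons share 682 of 1592 bases with Duoxa1 on the opposite strand, which was counted at no more than 0.166 CPM.

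Duox2 and Duoxa2 varied together, with r = 0.85 (permutation p = 0.00032, adjusted 0.00192) and rho = 0.74 (permutation p = 0.0079, adjusted 0.0237) over the 12 mice. The r was 0.84 without M2_A and M18_b, the mice farthest from the median of Duox2, and it was 0.69 among the 6 APC Min/+ and 0.92 among the 6 WT mice. Without M10_2 and M13_1, rho was 0.64 (permutation p = 0.0534). The ratio of Duox2 to Duoxa2 ran from 1.77 (M2_A) to 4.29 (M20_1) in APC Min/+ and from 1.22 (M18_b) to 4.41 (M19_1) in WT mice. In M18_b both genes were high, and Duoxa2 stood further above the other WT mice than Duox2 did. The mean log2 ratio differed by -0.09 between genotypes (exact permutation test, p = 0.807, adjusted 0.807).

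**Figure D3:**
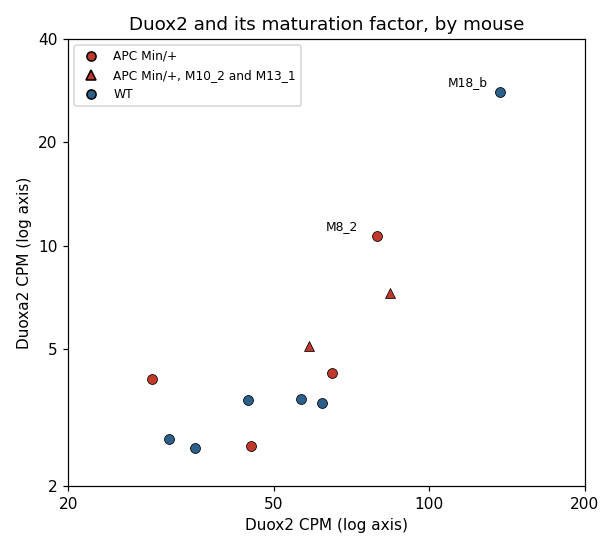
Duox2 (x axis) and Duoxa2 (y axis) in CPM, both on log axes, 1 point per mouse, for APC Min/+ (red, triangles for M10_2 and M13_1) and WT (blue). The points rise together, and M18_b at 137 and 28.1 CPM is highest for both genes.

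Nos2, the inducible nitric oxide synthase, was at the lower end of the 9 genes, from 25 to 186 reads per mouse. It was counted at 0.682 (M8_2), 0.939 (M10_2), 1.10 (M18_2b), 0.486 (M13_1), 0.672 (M2_A) and 0.460 CPM (M20_1) in APC Min/+, and at 0.467 (M17_2), 0.961 (M19_1), 0.522 (M16_1), 0.579 (M18_2a), 0.295 (M17_1) and 1.09 CPM (M18_b) in WT mice. Both genotypes held mice near 0.5 and near 1 CPM, and they overlapped over almost their whole range. The means were 0.724 ± 0.253 CPM (SD, n = 6) and 0.652 ± 0.307 CPM (SD, n = 6), with a log2 fold change of 0.15 (SE 0.326, FDR = 0.934 in edgeR's quasi-likelihood test). The approximate 95% interval from the standard error ran from -0.49 to 0.79 on the log2 scale.

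The relation of the 9 genes to regional identity was read from Hoxb13, which marks the distal colon. It rested on 74806 reads in M10_2 and 24871 in M13_1, and on 0 to 145 reads in each of the other 10 mice. Because these 2 mice are told apart by a measured gene, their levels are given without a test. Of the 9 genes, 1 (Nox1, 35.4 and 24.3 against 3.67 to 15.8 CPM) was above the other 10 mice in both, as were 11.8% of all genes tested, and 1 (Noxa1, 40.5 and 29.6 against 48.9 to 60.3 CPM) was below them, as were 12.2% of all genes. For the other 7 genes at least 1 of the 2 mice lay within the range of the other 10. Noxo1 (90.1 and 84.0 CPM) was at the upper end beside M17_1 at 87.3 CPM, while Nox4 (1.38 in each), Cybb (13.2 and 10.1), Cyba (35.5 and 27.8), Duox2 (83.8 and 58.5), Duoxa2 (7.29 and 5.09) and Nos2 (0.939 and 0.486 CPM) were inside the range. Both mice are APC Min/+ and no WT mouse had a high Hoxb13 level, so such a level could not be followed in WT. The other 4 APC Min/+ mice, with low Hoxb13, averaged 12.2 ± 3.54 CPM of Nox1 and 51.2 ± 2.27 CPM of Noxa1 (SD, n = 4).

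**Figure D4:**
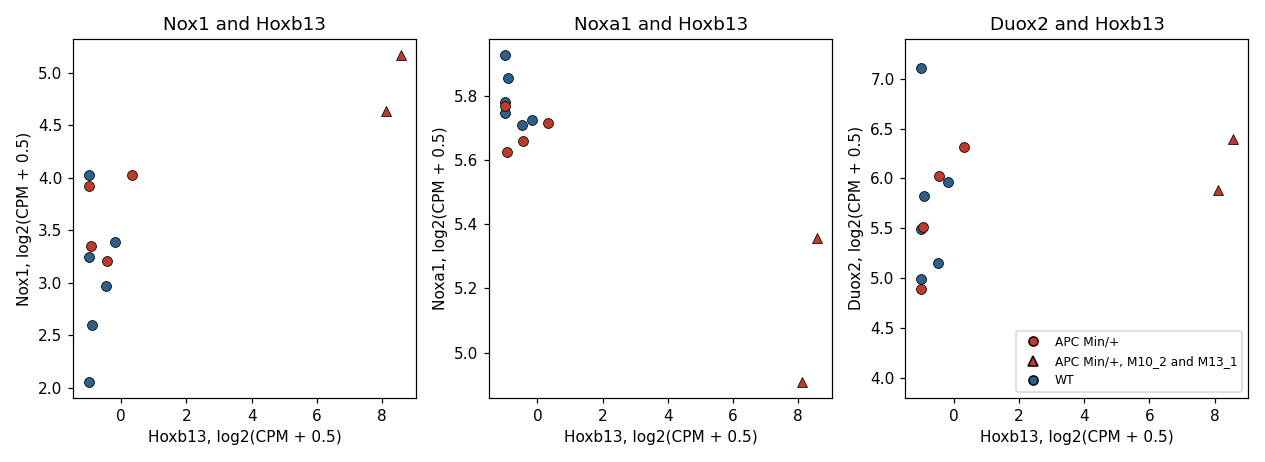
Nox1, Noxa1 and Duox2 (y axes) against Hoxb13 (x axes), all as log2(CPM + 0.5), 1 point per mouse, for APC Min/+ (red, triangles for M10_2 and M13_1) and WT (blue). The triangles are far to the right in each panel, above all other mice for Nox1, below them for Noxa1 and within their range for Duox2.

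Within the other 10 mice, where Hoxb13 was at most 0.744 CPM, 0 of the 9 genes had a correlation with it that passed adjustment over the 9 (permutation tests on log2(CPM + 0.5)). The lowest p was that of Nox4, with r = -0.68 (permutation p = 0.0303, adjusted 0.273) and rho = -0.77 (permutation p = 0.0138, adjusted 0.125), and r was -0.42 without M8_2 and M19_1. For Nox1, r was 0.31 (permutation p = 0.385, adjusted 0.553) and rho 0.16 (permutation p = 0.650, adjusted 0.836), and r was -0.12 without those mice. For Noxa1, r was -0.39 (permutation p = 0.263, adjusted 0.553) and rho -0.55 (permutation p = 0.103, adjusted 0.334), and r was -0.49 without them. Hoxb13 was at 0 reads in 4 of these 10 mice.

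Other genes of the same chemistry were grouped by role, and 0 genes in any of the groups passed the threshold in either direction in edgeR's quasi-likelihood test. Of the other NADPH oxidase and dual oxidase genes, 8 of 9 were tested, with a median log2 fold change of -0.01. The small GTPase Rac1, which activates the Nox1 complex, was counted at 433 ± 62.5 CPM in APC Min/+ (SD, n = 6) and 375 ± 114 CPM in WT (SD, n = 6), with 168 CPM in M17_1 and at least 319 CPM in every other mouse. Cybc1, a chaperone of the phagocyte oxidase, was counted at 38.4 ± 1.497 and 39.9 ± 4.23 CPM (SD, n = 6 each). Duox1, the other dual oxidase, was at most 0.50 CPM. For 0 of these 8 genes were M10_2 and M13_1 both above or both below the other 10 mice. Among all genes tested, 11.8% were above and 12.2% below in this way.

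Of the 7 other nitric oxide genes tested, the median log2 fold change was 0.22 and 1 had an unadjusted p under 0.05. This was Ass1, which makes the precursor of arginine, at 24.4 ± 12.7 CPM in APC Min/+ (SD, n = 6) and 13.8 ± 5.48 CPM in WT (SD, n = 6) (log2 fold change 0.82, SE 0.328, FDR = 0.908 in edgeR's quasi-likelihood test). Its level in M10_2 (46.5 CPM) and M13_1 (31.8 CPM) exceeded the other 10 mice, which lay between 8.89 and 22.8 CPM. Gch1, which makes the cofactor tetrahydrobiopterin, was also above the other 10 in both mice, at 19.3 and 17.3 CPM against 10.1 to 16.5 CPM. The arginases Arg1 and Arg2, which use up arginine, were both below, and Arg2 was at 1.43 and 1.66 CPM against 21.4 to 37.2 CPM. Among all genes 11.8% were above and 12.2% below in this way. Without M10_2 and M13_1, Ass1 had a log2 fold change of 0.30 (FDR = 0.9999 in the same edgeR test).

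Among peroxidases, 7 of 8 genes were tested, with a median log2 fold change of -0.23. M10_2 and M13_1 were below the other 10 mice for 4 of the 7 (Epx, Lpo, Gpx4 and Cat) and above them for 0, beside 12.2% below and 11.8% above among all genes. Of these, Epx was barely counted, at 0 CPM in M10_2 and M13_1 and 0.0417 to 0.221 CPM in the other 10. The 2 peroxidases with the highest mean over the 12 mice were Gpx2, an epithelial glutathione peroxidase, and Gpx1. Gpx2 was at 197 ± 31.1 CPM in APC Min/+ (SD, n = 6) and 166 ± 25.3 CPM in WT (SD, n = 6), and Gpx1 at 144 ± 21.1 and 134 ± 12.8 CPM (SD, n = 6 each). Of the 11 genes that remove superoxide and peroxide, the median log2 fold change was 0.01, and M10_2 and M13_1 were above the other mice for 2 (Sod3 and Prdx6) and below for 3 (Sod1, Prdx1 and Prdx3), beside the same shares of 11.8% and 12.2% among all genes. Prdx6 had an unadjusted p under 0.05, with 1990 ± 1031 CPM in APC Min/+ (SD, n = 6) and 1142 ± 459 CPM in WT (SD, n = 6) (log2 fold change 0.80, SE 0.359, FDR = 0.908 in edgeR's quasi-likelihood test). Prdx6 was at 2636 and 3718 CPM in M10_2 and M13_1 and between 451 and 1883 CPM in the others, and its log2 fold change was 0.29 without those mice (FDR = 0.9999 in the same edgeR test).

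Nrf2, encoded by Nfe2l2, is a transcription factor that answers oxidants, and 7 genes of its pathway were tested, with a median log2 fold change of -0.27. M10_2 and M13_1 were below the other 10 mice for 5 of the 7 (Nfe2l2, Hmox1, Nqo1, Gclc and Srxn1), which held for 12.2% of all genes. Hmox1, heme oxygenase, had an unadjusted p under 0.05 and was counted at 6.16 ± 1.602 CPM in APC Min/+ (SD, n = 6) and 8.52 ± 2.66 CPM in WT (SD, n = 6) (log2 fold change -0.47, SE 0.217, FDR = 0.908 in edgeR's quasi-likelihood test). Without M10_2 and M13_1 its log2 fold change was -0.32 (FDR = 0.9999 in the same edgeR test). The summed level of the 7 genes was 540 and 535 CPM in M10_2 and M13_1, and between 906 and 1123 CPM in the other 10 mice.

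Of 12 inducers and bacteria-responsive epithelial genes, 8 were tested, with a median log2 fold change of -0.06. The inducing cytokines Ifng, Il6, Il17a and Il22 fell below the filter, none of them above 0.0808 CPM in any mouse, while Tnf was at most 0.757 CPM. Saa1, a serum amyloid A protein that bacteria induce in the epithelium, had an unadjusted p under 0.05, with 361 ± 435 CPM in APC Min/+ (SD, n = 6) and 93.5 ± 25.7 CPM in WT (SD, n = 6) (log2 fold change 1.95, SE 0.715, FDR = 0.908 in edgeR's quasi-likelihood test). It was at 1012 and 822 CPM in M10_2 and M13_1 and at most 125 CPM elsewhere, and its log2 fold change turned to -0.16 without those mice (FDR = 0.9999 in the same edgeR test). Its relative Saa3 and the antibacterial lectins Reg3b and Reg3g were below the other 10 mice in both, as were 12.2% of all genes. In M18_b, where Duox2 and Duoxa2 were highest, Saa3 was also the highest of the 12 mice at 12.6 CPM, whereas Saa1 (97.8 CPM), Reg3b (65.7 CPM) and Nos2 (1.09 CPM) were within the range of the other mice.

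Cell type markers moved with some of these values, and their part in them was not tested. M10_2 and M13_1 had 49.9 and 20.6 CPM of Cdx2, an intestinal homeobox factor, against at least 66.6 CPM elsewhere, Krt20 below and Cdh1 above the other 10 mice, but summed epithelial markers of 7540 and 6587 CPM, within the range of the rest. All 4 distal Hox genes tested, among them Hoxb13 that singled these mice out, were above the other 10 in both. The muscle genes Des and Cnn1 were above the others in both, at 709 and 674 CPM for Des against at most 586 CPM, while all 4 muscle markers summed to 3962 and 4190 CPM, within the range of the rest. Of the 6 macrophage markers, Cd14 was above the other 10 mice in both, at 30.5 and 23.6 CPM against at most 17.8 CPM. Among all genes, 11.8% were above in this way. In M13_1, Cd68, Csf1r, Adgre1 and Itgam were each below all other mice, while M10_2 was within the range of the rest for them. Lyz2 was within that range in both mice. The summed macrophage markers were 265.5 CPM in M10_2 and 185.3 CPM in M13_1, within the range of the rest. B cell markers summed to 27.0 CPM in M13_1 and to at most 6.03 CPM elsewhere. Endothelial markers summed to 51.7 to 108 CPM and fibroblast markers to 716 to 1303 CPM, both lowest in M17_1.

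The genes whose CPM followed each of 3 members most closely over the 12 mice were ranked by Spearman's rho, as a description without a test. For Nox1 these were Pcx (0.98), Rdh9 (0.97), Ly6g6e (0.97), Sprr2a3 (0.97) and Tmbim1 (0.96), and rho was between 0.93 and 0.96 for these 5 within the 10 mice other than M10_2 and M13_1. For Duox2 they were Cit (0.94), Bcl3 (0.94), Rprd1b (0.92), Srebf2 (0.92) and Sf3b2 (0.92). For Nos2 they were Gm16751 (0.92), B930094E09Rik (0.90), Gm13234 (0.87), Trim25 (0.85) and C130074G19Rik (0.85). These values are the highest among 20311 genes. Library depth and tissue composition differed between the mice, and their part in these values was not tested.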

How the data were processed

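Paired-end RNA-Seq was run on the proximal colon of 12 mice. Reads were mapped by the authors with STAR 2.3.0 to GRCm38 (GRCm38.p2 in the submitters' notes) and summarised with featureCounts. The deposited tables, 1 per mouse, hold unnormalized counts per Ensembl gene and the gene's length in bases. The strand setting and annotation release are not given in the sources used here. Symbols were matched by Ensembl ID to GENCODE M21 for 37607 of 38924 genes, and 28449 had a count. Groups and mouse names came from the sample titles and genotype labels. The 9 genes and the other lists were chosen with earlier results of these data known.

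Counts were fitted with edgeR 4.0.16 (quasi-likelihood, TMM, R 4.3.3) on genes that had 10 or more counts in 3 or more mice, over all 12 mice without covariates, and a gene was called at an FDR (Benjamini-Hochberg over all genes tested) under 0.05 with at least a 2-fold change. Standard errors are the log2 fold change divided by the square root of F. CPM were TMM-scaled, and RPKM are those CPM divided by the table lengths. The exact permutation test took all 924 regroupings, and correlations used 100000 permutations, all two-sided. The edgeR quasi-likelihood fit was tested on simulated counts with known changes. The simulated mice included none set apart as M10_2 and M13_1 were. The ratios between partner genes were added after seeing the data. Alternatives were DESeq2 1.42.0, limma-voom 3.58.1, edgeR's exact test, RLE or no scaling, other filters, the ending of the sample titles as a covariate, leaving out M10_2 and M13_1, and leaving out each mouse. The title endings group 5, 5 and 2 mice, and their meaning is not given, so no within-batch correlation was computed, and the labels give no shipment. From the other lists, genes were named where the unadjusted p was under 0.05 (up to 4 per list), else the 2 highest, and for Nox1, Duox2 and Nos2 the 5 most alike by Spearman's rho. Where both Hoxb13-high mice lay outside the others, or a gene bore on a result, it was named after its values were seen. P-values set a difference or correlation against the variation between mice, which were taken as independent. Cage and shipment entered no fit. Counts set the precision: 3 counts were worth 0.0152 to 0.0560 CPM.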

Additional observations from a re-analysis of the deposited data

Results flagged for a closer look

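In 3 of the 18 sets of 6 values (9 genes in 2 genotypes) a single mouse lay far from the others of its genotype by Dixon's criterion, which chance meets in about 1 of 20 sets. All 3 were in WT mice. Noxo1 was at 87.3 CPM in M17_1 and between 52.9 and 63.7 CPM in the other 5 WT mice. Duox2 was at 137.1 CPM in M18_b, against 31.4 to 61.9 CPM, and Duoxa2 was at 28.06 CPM in the same mouse, against 2.58 to 3.59 CPM. M17_1 had the lowest summed epithelial markers of the 12 mice (5584 CPM) and M18_b the highest (11280 CPM), and the part of these in the values was not tested.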

How the results depend on the processing

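Of the alternatives, 27 genes were called by DESeq2 and 10 by edgeR's exact test, and 0 by every other setting; none of the 9 genes was called under any. The filter of 1 CPM in 6 mice left no value for Nos2. The Nox1 difference in mean log2 CPM lost its exact p under 0.05 on ranks (4.0 ranks, p = 0.0649) and without M10_2 and M13_1 (0.58, p = 0.186), and that of Noxa1 with CPM on total count alone (-0.24, p = 0.0628) and without those mice (-0.10, p = 0.0905). Signs turned for Noxo1 without those mice (log2 fold change -0.22, difference -0.20) and on ranks (-1.0), and for Cybb without a scaling factor (0.0218, and 0.0219 for the difference). For Duox2 and Duoxa2 the main measures themselves differed in sign, with log2 fold changes of -0.02 and -0.37 and differences of 0.0818 and 0.136. The Duox2 log2 fold change turned without a scaling factor (0.0547), by limma-voom (0.0763) and with the title ending as covariate (0.037). Its difference turned without M10_2 and M13_1 (-0.0692). The Duoxa2 log2 fold change turned by limma-voom (0.28) and with the title ending (0.23). The Spearman correlation was -0.11 for Nox1 with Noxo1 and 0.31 for Nox1 with Cyba over all 12 mice, and 0.64 for Duox2 with Duoxa2 in the 10 mice. Without the 2 mice farthest in Hoxb13, its Spearman correlation was -0.37 with Nox1, 0.24 with Noxo1, -0.63 with Nox4 and -0.16 with Duoxa2. The mean log2 ratio of Noxo1 to Nox1 differed by -0.82 (p = 0.148) and that of Noxa1 to Nox1 by -0.72 (p = 0.124) without M10_2 and M13_1, by exact permutation tests added after seeing the data, and the log2 fold change of Saa1 turned to -0.16. The causes were not tested.

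Leaving out 1 mouse at a time, the log2 fold change lay between 0.78 and 1.35 for Nox1, -0.0755 and 0.15 for Noxo1, -0.30 and -0.16 for Noxa1, -0.23 and -0.05 for Nox4, -0.14 and 0.0927 for Cybb, -0.0021 and 0.21 for Cyba, -0.15 and 0.40 for Duox2, -0.65 and 0.84 for Duoxa2, and -0.0040 and 0.37 for Nos2. The difference in mean log2 CPM lay between 0.78 and 1.20 for Nox1, -0.0808 and 0.11 for Noxo1, -0.34 and -0.17 for Noxa1, -0.16 and -0.03 for Nox4, -0.14 and 0.0883 for Cybb, -0.0034 and 0.27 for Cyba, -0.0705 and 0.35 for Duox2, -0.0599 and 0.63 for Duoxa2, and 0.0046 and 0.20 for Nos2. The log2 ratio difference lay between -1.26 and -0.73 for Noxo1 to Nox1, -1.55 and -1.08 for Noxa1 to Nox1, -0.34 and 0.0379 for Duox2 to Duoxa2, and -1.06 and -0.64 for Cyba to Nox1. The highest log2 fold changes of Duox2 and Duoxa2 came without M18_b. No paired analysis was possible because the genotypes share only 1 number, 18, in the mouse names, whose meaning is not given. Nos2 rested on only 25 to 186 reads per mouse.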
